A study of Caenorhabditis elegans with 2 samples.

Results

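Of the 4218 reproducible binding peaks of LSY-2, a zinc finger protein that regulates transcription in the worm Caenorhabditis elegans, 864 were distal intergenic. Their summits lay outside protein-coding genes and the promoter windows defined below, but could lie at some kinds of non-coding gene, such as microRNA genes. These peaks were chosen by position alone. A summit qualified when it lay outside every protein-coding gene and outside the promoter window, which reaches from 1000 bp before to 200 bp after each transcript start of a protein-coding, tRNA, snoRNA or snRNA gene, on the ce11 (WBcel235) build. They made up 20.5% of all peaks (95% exact interval 19.3 to 21.7%), beside 2864 promoter peaks, 426 intronic peaks and 64 exonic peaks. The peaks are called D1 to D864 here, in order of falling signal. Intervals overlapped in 10 pairs, so the 864 summits stood in 854 separate stretches, and 8 summits shared their replicate value with a neighbouring summit.

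The data came from ChIP-seq of an eGFP-tagged LSY-2 in whole L1 larvae, the earliest larval stage, of mixed sex. All animals were of strain OP367, genotype unc-119(tm4063) III; wgIs367, an insertion that carries the tagged gene. There was 1 group with 2 biological replicates, so no conditions were compared. Whole larvae mix all cell types, and a peak in a few cells cannot be told apart from a weak peak in many.

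Transcription factors bind promoters, next to where RNA polymerase starts, and enhancers, which act from a distance and often serve particular cell types. Caenorhabditis elegans has a compact genome, in which much of the regulation of a gene lies close to its start. Genetically LSY-2 is best known from the ASE pair of taste neurons, whose left and right members it helps to make different. Many transcripts of this worm are trans-spliced, so that an annotated start can lie downstream of the place where transcription begins. How many distal summits lie at such unannotated starts was not tested.

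GA repeats, X-linked sites with the core of a dosage compensation motif, and a dispersed repeated element were all present among the strongest distal peaks. Others of the strongest held none of the motifs searched within 50 bp of the summit. Dosage compensation in this worm lowers expression from both X chromosomes of hermaphrodites, and its protein complex is recruited to X sites that contain the motif enriched on X (MEX). Shown first are 4 of the 12 X peaks with the MEX core, GCGCAGGG on either strand, because they show the core as it lies under strong X peaks. Each line gives the summit base and the 50 bases on either side, from 5′ to 3′ on the plus strand of ce11, with matches to the motifs searched in capitals. D7 is at chrX:11094151-11094251, D9 at chrX:4209249-4209349, D11 at chrX:8036349-8036449 and D20 at chrX:806620-806720, which also holds TGCGTCTC.
D7: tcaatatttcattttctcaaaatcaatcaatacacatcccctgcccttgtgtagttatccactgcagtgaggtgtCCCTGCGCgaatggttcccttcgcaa
D9: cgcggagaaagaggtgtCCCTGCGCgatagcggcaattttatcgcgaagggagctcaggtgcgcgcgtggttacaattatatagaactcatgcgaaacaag
D11: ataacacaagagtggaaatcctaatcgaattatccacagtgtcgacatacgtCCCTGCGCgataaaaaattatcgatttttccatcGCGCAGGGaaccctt
D20: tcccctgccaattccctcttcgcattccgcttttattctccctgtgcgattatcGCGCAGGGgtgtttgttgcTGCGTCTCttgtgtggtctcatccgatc

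The next set shows a dispersed element that lay under 5 distal peaks, D1, D2, D75, D193 and D220. D2 is at chrIV:4727991-4728091, D75 at chrV:4063703-4063803, D193 at chrIV:4184929-4185029 and D220 at chrIV:4720695-4720795. The capitals mark GAGAGA or its reverse complement, which lies within the stretch they share, in opposite orientation in the last 2 lines.
D2: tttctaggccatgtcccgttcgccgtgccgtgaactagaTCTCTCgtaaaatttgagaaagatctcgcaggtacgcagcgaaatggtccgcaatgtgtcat
D75: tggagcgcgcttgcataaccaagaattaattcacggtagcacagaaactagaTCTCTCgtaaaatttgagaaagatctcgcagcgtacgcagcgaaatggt
D193: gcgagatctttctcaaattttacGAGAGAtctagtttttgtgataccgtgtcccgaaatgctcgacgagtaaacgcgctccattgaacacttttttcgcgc
D220: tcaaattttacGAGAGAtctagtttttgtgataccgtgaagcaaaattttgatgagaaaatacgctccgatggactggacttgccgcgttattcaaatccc

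A GA-rich autosomal peak, D29, stood 2557 bp upstream of the nuclear hormone receptor gene nhr-88, at chrII:2974032-2974132. Its capitals mark GAGAGA. D6, at chrV:17981882-17981982, is shown as a strong peak with both GACGCA and ACCGTA, and D3, at chrIV:15570948-15571048, as a strong peak with none of the motifs searched. D3 does hold AGAGAG and AGAGAA, which overlap GAGAGA in letters, so it is not free of GA-rich sequence.
D29: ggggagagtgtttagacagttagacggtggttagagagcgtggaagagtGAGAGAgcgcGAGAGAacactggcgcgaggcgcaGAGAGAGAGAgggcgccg
D6: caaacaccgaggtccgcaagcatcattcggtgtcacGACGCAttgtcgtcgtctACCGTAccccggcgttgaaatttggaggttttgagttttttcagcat
D3: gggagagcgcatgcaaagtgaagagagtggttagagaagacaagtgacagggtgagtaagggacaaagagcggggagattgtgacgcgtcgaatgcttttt

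Distal peaks were weaker than promoter peaks as a class, but the strongest of them were strong. Signal here is the value that the authors gave each peak, without a stated unit, and it serves only to rank and describe peaks within a list. The median distal signal was 69.9 (quartiles 52.6 and 109), beside 102 for promoter peaks and 65.1 for intronic peaks. No distal peak was among the 50 strongest peaks of all, 5 were among the first 100 and 42 among the first 500. Their share rose from 10.2% of the 1054 strongest peaks (interval 8.39 to 12.1%) through 19.1% and 25.2% in the next 2 groups of like size to 27.5% from rank 3164 to the end (24.8 to 30.3%). Promoter peaks made up 84.5% of the first group and 54.1% of the last.

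**Figure D1:**
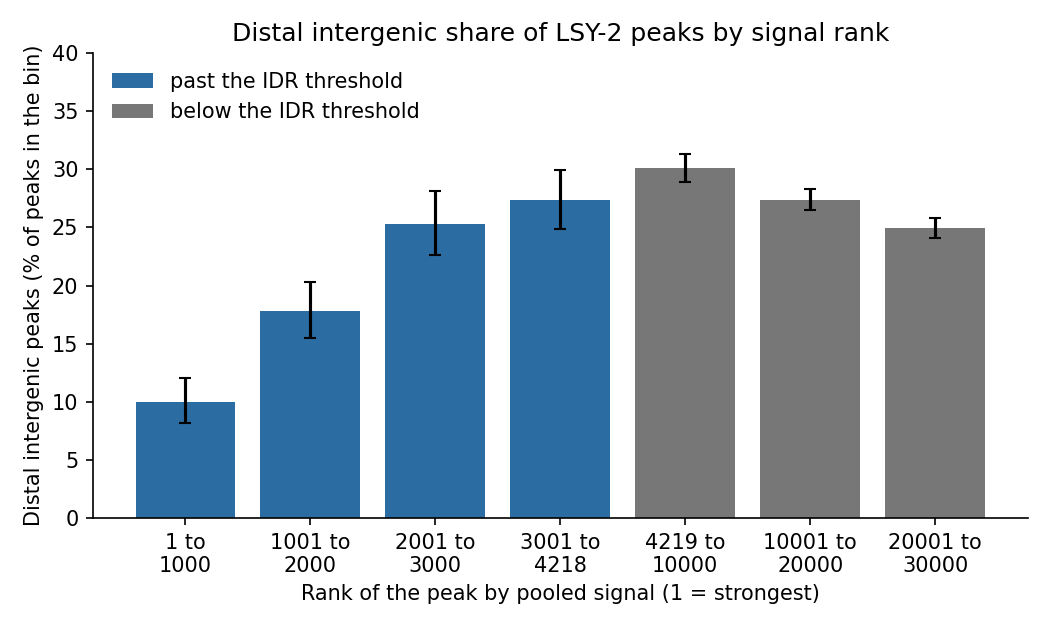
Share of peaks that were distal intergenic (y axis, %) by rank of pooled signal (x axis, 1 = strongest), in the pooled list; bars show 95% exact intervals, blue bins lie past and grey bins below the IDR threshold. The share was 10% in the first 1000 peaks, 27.3% in ranks 3001 to 4218, 30.1% in ranks 4219 to 10000 and 24.98% in the last 10000.

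The rise with rank continued just below the reproducibility (IDR) threshold. In ranks 4219 to 10000 of the pooled list 30.1% of peaks were distal, and in ranks 20001 to 30000 the share was 24.98%.

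Nearly all distal peaks had a summit in both replicates, which the choice of list largely sets in advance for every class. A summit of each replicate lay within 200 bp in 857 of 864 (99.2%, interval 98.3 to 99.7%), beside 99.1% of promoter and 99.1% of intronic peaks. The peaks came from the reproducible (IDR-thresholded) list, and each replicate list held 30000 peaks. This share is therefore no separate evidence of reproducibility. D176, D505, D723, D842 and D844 had no replicate 2 summit there, and D583 and D782 no replicate 1 summit. The replicates differed more in level at distal peaks than at promoter peaks, with a median coefficient of variation of 25.4% against 18.5% (n = 2 replicates at each peak). Intronic peaks, of like signal, had 25.1% and exonic peaks 29.9%, so the wider spread was not particular to distal peaks. Replicate 1 had the higher value at 668 of the 857 distal peaks (77.9%), with a median log2 ratio of 0.42, beside 0.31 at promoter and 0.46 at intronic peaks. The signals are not scaled between replicates, so this excess holds the difference in level between the lists. Among the 4218 strongest peaks of each replicate alone, 86.3% of distal peaks were present in replicate 1 and 82.2% in replicate 2. Promoter peaks were present in 91.6% and 89.6%, and intronic peaks in 85.4% and 79.8%.

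**Figure D2:**
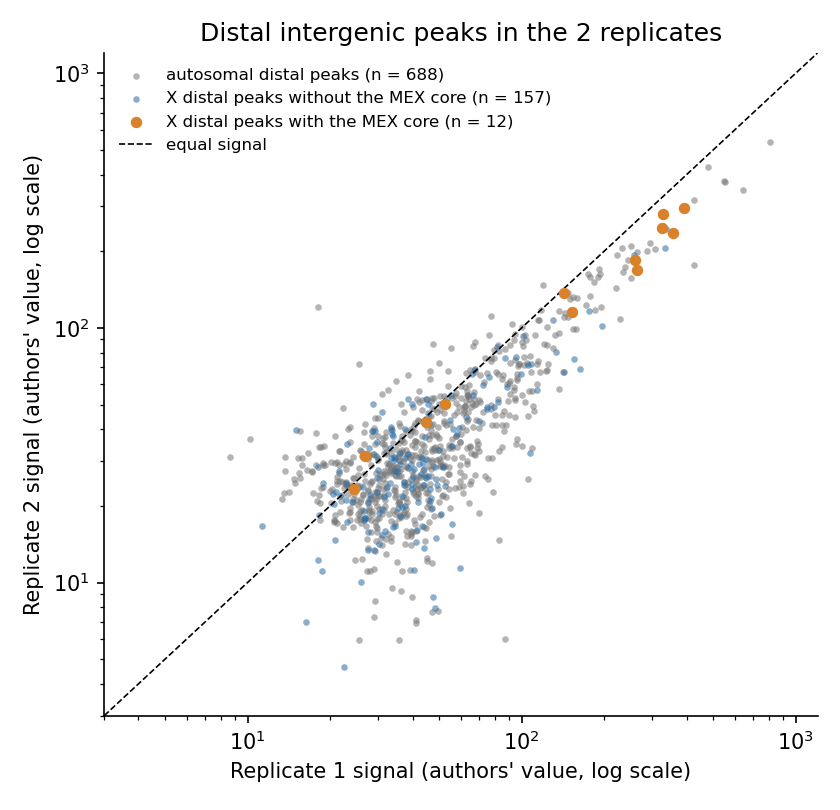
Signal of each distal peak in replicate 1 (x axis) and replicate 2 (y axis), both the authors' values on log axes, for the 857 peaks with both; the dashed line marks equal signal and orange points are the 12 X peaks with the MEX core. Most points lie below the line, and 8 of the 12 orange points have a pooled signal of 200 or more.

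The strongest distal peak, D1, had a signal of 803 in replicate 1 and of 537 in replicate 2, and 1319 when pooled (replicate mean 670 ± 188, SD, n = 2). It lay at chrI:2639584-2640060, between F40E3.3 and mage-1. D2, at chrIV:4727876-4728287 on the downstream side of K08F11.1, had 644 and 349 in the replicates and 1003 in the pool. D8 stood 559 bp downstream of a start of the same gene, at chrIV:4725535-4725874, with 424 and 177 in the replicates and 607 in the pool. K08F11.1 was the nearest gene of 4 distal peaks in all, among them D220. At all 3 of the peaks just given replicate 1 was the higher.

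D3 lay in a wide gap of 14658 bp between the divergent genes Y105C5A.1 and pqn-76, at chrIV:15570689-15571234, with 553 and 374 in the replicates and 927 in the pool. D4 stood between nlp-40, which encodes a neuropeptide-like protein, and rcor-1, at chrI:16819-17181, with 545 and 376 and a pooled value of 917. D5, at chrIII:6344718-6345112, was 1339 bp upstream of trmt-10C.2 and had the closest replicates of the first 5, 479 and 428, with a pooled value of 910. D6, 1850 bp upstream of snx-6, a sorting nexin gene, at chrV:17981729-17982163, had 427 and 317 and a pooled value of 751. Each of these 4 was higher in replicate 1.

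Of the peaks from D7 to D12, 5 lay on X. D7 at chrX:11093924-11094443 near W02H3.3 had 391 and 295 in the replicates and 688 in the pool. D9 at chrX:4208992-4209573, upstream of F20B6.9, had 328 and 281 and a pooled value of 600. D10, near F19H6.5 at chrX:12362925-12363380, had 357 and 234.7 and a pooled value of 586. D11 lay 4914 bp upstream of xol-1, the switch gene that sets sexual fate and dosage compensation from the number of X chromosomes, at chrX:8036073-8036812, with 325 and 248 and a pooled value of 585. D12, 6048 bp upstream of K02D3.1 at chrX:13700577-13701082, had 337 and 244 and a pooled value of 572. In all 5 the replicate 1 value was the higher.

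Distal peaks were spread over all chromosomes, and X had the largest share of its peaks in distal sequence. X held 172, which was 29.0% of its 594 peaks (interval 25.3 to 32.8%), against 19.1% of autosomal peaks (17.8 to 20.4%), and the intervals do not overlap. Chromosome I held 142, II held 125, III held 156, IV held 147 and V held 122. The sequence in which a summit could count as distal came to 24.8 Mb, 24.7% of the 6 chromosomes, and X holds more of it than any other chromosome, 5.57 Mb. Per Mb of that sequence the order was III (56.3 peaks), I (51), II (35.2), X (30.9), IV (29.6) and V (23.8). X therefore led in the share of its peaks but not in density. Over the whole genome distal sequence held 34.9 peaks per Mb and promoter windows 105 per Mb.

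**Figure D3:**
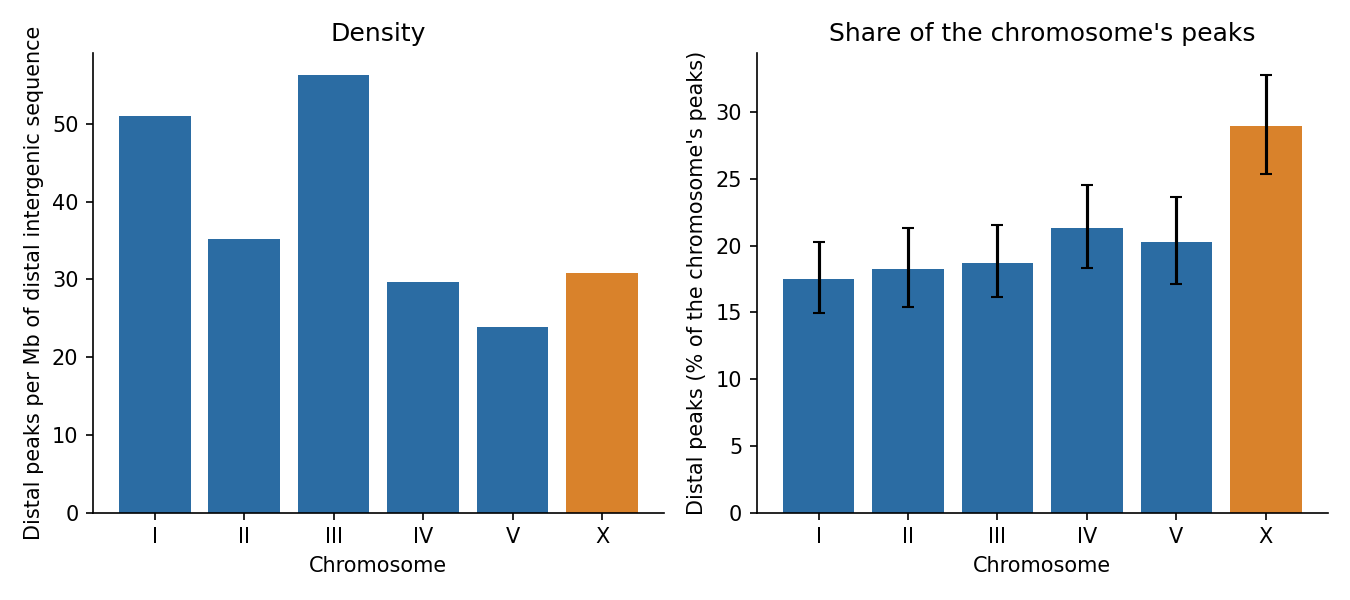
Distal peaks by chromosome, as peaks per Mb of distal intergenic sequence (left) and as a percentage of all peaks of the chromosome with 95% exact intervals (right); X is orange. Chromosome III was densest at 56.3 per Mb and X had the highest share at 29.0%.

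With each chromosome divided into 3 equal segments, 36.6% of distal peaks lay in the central one (interval 33.4 to 39.9%), where 30.2% of distal sequence lies. Promoter peaks did so in 43.3% (41.5 to 45.1%) and intronic peaks in 43.9%. Density differed with the orientation of the neighbouring genes, with 40.5 peaks per Mb between divergent genes (299 peaks), 36.7 between genes in tandem (486 peaks) and 19.4 between convergent genes (79 peaks). The gap between the 2 neighbouring genes had a median of 6396.5 bp.

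The median distance from a distal summit to the nearest protein-coding transcript start was 2257 bp (quartiles 1436.5 and 3563.75), on the upstream side for 642 of 864 (74.3%, interval 71.3 to 77.2%). The rule itself removes the first 1000 bp upstream. The share of distal sequence on the upstream side of its nearest start was not determined, so 74.3% cannot be read as a preference. Just inside the limit lay summits 1001 bp upstream of ulp-4 (signal 44.2), 1002 bp upstream of zig-1 (65.4) and 1004 bp upstream of ain-1 (185). Just outside lay summits 1000 bp upstream of ppm-2 (211) and 998 bp upstream of F53C3.6 (69.3) and of his-1 (53.1).

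Signal did not follow distance in a regular way. The median was 69.1 for the 212 distal peaks at 1001 to 1500 bp, 77.3 for the 165 at 3001 to 5000 bp and 59.6 for the 13 beyond 10000 bp. The farthest peak, D140, lay 16613 bp from the start of aakg-1, a gamma subunit gene of the energy sensor AMPK, and on its downstream side, at chrIII:12528115-12528282, with 90.4 and 55.2 in the replicates and 147 in the pool. D104 followed, 13386 bp upstream of irld-18 in a gap of 35563 bp, with 96.6 and 70.7 in the replicates. D701 was 12380 bp upstream of C30G12.2, with 41.2 in replicate 1 and 7.16 in replicate 2, the widest of these 5 as a ratio. D645 and D388 shared the gap of 18574 bp between snt-1, the synaptotagmin gene, and egl-27. They lay 11609 bp upstream of egl-27 and 11586 bp downstream of the snt-1 start, with replicate values of 28.2 and 24.9, and of 47.5 and 28.6.

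Some gaps between genes held several distal peaks, with overlapping summits counted apart. Of the 674 gaps with a distal peak, 131 held 2 or more, 321 peaks in all. How many such gaps their width alone would give was not determined. Another peak of any class lay within 2000 bp of 33.7% of distal, 42.5% of intronic and 24.0% of promoter peaks. The gap between the divergent genes F54F12.1 and Y39E4B.6 on chromosome III, 15313 bp wide, held 6, among them D15 with a pooled signal of 508. The gap between snt-1 and egl-27 held 5, and so did those between irld-18 and dmd-6, rho-1 and zip-7, lpin-1 and letm-1, and R03E9.2 and mdl-1. The 864 peaks were nearest to 738 genes, 102 of which had 2 or more.

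Nuclear hormone receptor, heterochronic and pan-neuronal genes were nearest to more distal peaks than their share of distal sequence, and chemoreceptor genes to fewer. Of these groups, only nuclear hormone receptor genes had a distal share whose interval lay apart from that of their share of promoter peaks. The counts are descriptions, set beside the share of distal sequence that is nearest to the same genes. Nuclear hormone receptor genes, a family of ligand-regulated transcription factors that is greatly expanded in this worm, were nearest to 31 distal peaks at 27 genes (3.59%, interval 2.45 to 5.05%), where 1.82% of distal sequence is nearest to them, and to 1.12% of promoter peaks. The strongest were D29 upstream of nhr-88, with 192 and 170 in the replicates, and D43 upstream of nhr-20, with 151 and 129. Their median signal, 70.0, was close to that of all distal peaks.

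Heterochronic genes, which time larval development, were nearest to 6 distal peaks at 4 genes (0.694%, interval 0.255 to 1.51%), where 0.162% of distal sequence is nearest to them. D85 lay 1004 bp upstream of ain-1, a component of the microRNA silencing complex, with 100.7 and 93.2 in the replicates. D92 lay 1415 bp upstream of lin-41, a target of the microRNA let-7, with 93.8 and 89.6. The other 4 peaks were at ain-1, hbl-1 and the zinc finger gene blmp-1, with pooled signals of 43.4 to 68.3. D520 at hbl-1, a hunchback-like gene, had 48.3 in replicate 1 and only 7.93 in replicate 2.

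Pan-neuronal genes were nearest to 9 distal peaks at 9 genes (1.04%, interval 0.477 to 1.97%, against 0.231% of distal sequence). Their share of promoter peaks was 0.454% (0.242 to 0.775%), and the 2 intervals overlap. The strongest was D122 upstream of unc-116, the kinesin heavy chain gene, with 67.6 and 87.8 in the replicates, followed by D251 upstream of egl-3, a proprotein convertase gene needed for neuropeptides, with 67.0 and 32.0. Chemoreceptor genes were nearest to 7 distal peaks (0.810%, interval 0.326 to 1.66%), although 5.49% of distal sequence is nearest to them. They are 6.83% of protein-coding genes and were nearest to 0.559% of promoter peaks (0.320 to 0.906%), so the low share was not particular to distal peaks. D156 at srg-64 was the strongest of the 7, with 65.7 and 66.0. Neuropeptide genes had 3 distal peaks (0.347% against 1.46% of distal sequence, and 0.384% of promoter peaks), D4 at nlp-40 being the strongest and D453 at flp-18, with 45.6 and 26.3, the next. F-box genes had 2, D259 at fbxc-48 and D327 at fbxa-141 (0.231% against 1.38%, and 0.489% of promoter peaks).

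The other groups each had at most 4 distal peaks, and the interval of each share held the group's share of distal sequence. Hox and TALE homeobox genes had 3 (0.347% against 0.290% of distal sequence), D380 at lin-39 (43.4 and 34.9 in the replicates), D573 at egl-5 (35.6 and 20.8) and D617 at ceh-13, and other ceh homeobox genes had 2 (0.231% against 0.466%), both upstream of ceh-43, D205 (63.9 and 54.0) and D513 (37.6 and 24.1). Basic helix-loop-helix genes had 3 (0.347% against 0.316%), all at hlh-29, where D153 (82.3 and 51.2) and D413 (33.7 and 38.3) share long identical stretches. Ribosomal protein genes had 4 (0.463%, interval 0.126 to 1.18%, against 0.197% of distal sequence), and 1.43% of promoter peaks, the strongest distal ones being D580 at rpl-21 and D625 at rpl-31 with pooled signals of 57.5 and 54.1. Collagen genes had 3 (0.347% against 0.587%), led by D44 at col-185 (142 and 137 in the replicates) and D651 at col-55 (29.7 and 15.7), and C-type lectin genes 3 (0.347% against 0.690%), led by D535 at clec-181 (33.5 and 28.6) and D586 at clec-91 (28.9 and 32.1). Genes of the ASE asymmetry had 1 (0.116% against 0.212%), D730 at nsy-1, a MAP kinase kinase kinase gene, with 27.6 and 20.6. No distal peak was nearest to a histone gene, but only 0.100% of distal sequence is, and the exact interval for 0 of 864 reaches 0.426%.

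Non-coding genes covered 85 of the 864 summits (9.84%, interval 7.93 to 12.02%), while such genes cover 13.7% of distal sequence. Their kinds differed in direction. Unclassified non-coding RNA genes held 61 (7.06%, interval 5.44 to 8.98%), although they cover 1.66% of distal sequence. The strongest were D57 inside R03E9.10 (156 and 75.6 in the replicates), D59 inside F22E12.10 and F22E12.9 (118 and 118) and D65 inside C14F5.10 and C14F5.11 (134 and 80.4). Long intergenic RNA genes held 17 (1.97%, interval 1.15 to 3.13%, against 0.733% of distal sequence), D25 in linc-128 being the strongest with 238 and 173, before D88 in linc-91 (113 and 59.9) and D164 in linc-81 (62.7 and 66.4). Pseudogenes cover 10.8% of distal sequence but held only 8 summits (0.926%, interval 0.401 to 1.82%). A single summit, D331, lay in a piRNA gene, 21ur-13200.

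MicroRNA genes were not part of the rule, and 11 distal summits at 10 such genes lay between 1000 bp before and 200 bp after the start of the hairpin. This was 1.27% of distal peaks (interval 0.637 to 2.27%), in 0.468% of distal sequence. Of these, 4 were at 3 genes of the mir-51 family, whose mature forms share their seed, the bases with which a microRNA pairs to its targets. The mature sequences follow, read from the RefSeq annotation of the WBcel235 genome, with bases 2 to 8 in capitals. All 3 genes are on chromosome IV, at 11026074 to 11026096 for mir-51, 14034024 to 14034047 for mir-52 and 11027653 to 11027676 for mir-53.
mir-51: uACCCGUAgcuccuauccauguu
mir-52: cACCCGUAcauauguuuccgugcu
mir-53: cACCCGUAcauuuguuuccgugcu

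D77 stood 692 bp upstream of the mir-52 hairpin, with 137 in replicate 1 and 57.6 in replicate 2, and D208 22 bp upstream of it, with 77.8 and 30.8. D89 stood 109 bp upstream of mir-53, with 90.3 and 85.7. D235, 733 bp upstream of mir-51, was higher in replicate 2, 48.4 against 22.3. D183 and D703 lay upstream of mir-80 and mir-238, with 70.4 and 51.1, and with 23.4 and 23.7. The remaining 5, at mir-8209, mir-228, mir-8196a, mir-47 and mir-79, had pooled signals of 42.9 to 90.0.

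Sequence at distal summits was richer in GC and in GA repeats than the sequence beside it. GC content was 44.1% within 50 bp of the summit and 33.7% in flanks 300 bp away, beside 45.8% at promoter summits. Each 6-mer, counted with its reverse complement, was tested for presence near the summit against an equal number of positions in the flanks of the same peaks, by exact McNemar tests with Benjamini-Hochberg adjustment over all 2080. In this test 349 were more frequent near the summit (16.8% of those tested) and 266 less frequent (12.8%). Those more frequent had a mean of 3.84 G or C bases and those less frequent 1.35, so base composition moved with these calls and its part in them was not tested.

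GAGAGA came first by p. It was present near 357 distal summits, 41.3% (interval 38.01 to 44.7%), and in 7.29% of flanks (adjusted p = 1.42e-55, exact McNemar test). AGAGAG followed with 35.1% against 6.02%, and AGAGAC with 26.3% against 4.398%. These 6-mers overlap each other in letters and are not separate findings. Counted wholly within 50 bp of the summit, GAGAGA was in 347 distal peaks, of which 179 held 2 or more copies, overlapping copies included. GACGCA was present near 17.5% of distal summits and in 1.74% of flanks (adjusted p = 1.87e-30, exact McNemar test). The 8 letters TGCGTCTC, which overlap GACGCA on the other strand and were chosen after the data were seen, lay within 50 bp of the summit in 12.96% of distal peaks (interval 10.8 to 15.4%) and in 0.536% of windows of that size over all distal sequence.

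Among 6-mers that are parts of known binding sites, CACGTG, the E-box read by several helix-loop-helix proteins, was present near 8.45% of distal summits and in 2.08% of flanks (adjusted p = 6.87e-08, exact McNemar test). TGATAA, the site of GATA factors, was less frequent near summits than in flanks, 6.71% against 11.2% (adjusted p = 0.00773, exact McNemar test), and so was TAATTA, a core of homeodomain sites, 2.08% against 6.02% (adjusted p = 0.000391). The TGATAA call was lost in the replicate 1 list, without replicate 2, where the difference was -2.05 percentage points rather than -4.51 (adjusted p = 0.270, exact McNemar test), and with a promoter window of 2000 bp (adjusted p = 0.0890, exact McNemar test). AAAAAT fell from 58.7% of flanks to 22.7%, AAAATT from 50.1% to 16.4% and AAATTT from 30.8% to 7.29%. TTTGAA (15.2% against 33.8%) and TTCGAA (3.13% against 6.83%) were also called lower, TTCGAA not among the 2109 strongest peaks alone (adjusted p = 0.0640, exact McNemar test) or with the 2000 bp window (adjusted p = 0.0814). Not called were CAGCTG (4.17% against 2.08%), TGTTTA (6.83% against 8.68%) and ACCGTA (4.398% against 2.66%, adjusted p = 0.149, exact McNemar test). CAGCTG, at an adjusted p of 0.0564, passed as more frequent within 100 bp of the summit (0.00259), without replicate 1 (0.0111), without replicate 2 (0.00331) and against flanks 500 bp away (9.05e-05), by the same exact test. TGTTTA passed as less frequent without replicate 1 (adjusted p = 0.0400, exact McNemar test) and against flanks 500 bp away (0.00595).

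Distal and promoter summits differed in sequence. By Fisher's exact test with the same adjustment, 143 of 2080 6-mers were more frequent near distal than promoter summits (6.88%) and 215 less frequent (10.3%). GAGAGA led the first group, at 41.3% of distal and 24.8% of promoter summits (adjusted p = 6.63e-17, Fisher's exact test), followed by AGAGAA (38.3% and 22.8%) and AGAGAG (35.1% and 20.9%). On autosomes GAGAGA was at 46.8% of distal and 23.1% of promoter summits, but on X the order was reversed, at 19.2% and 36.6%. AGAGAG (19.8% and 31.4%) and AGAGAA (24.4% and 26.2%) were also lower at distal summits on X. The classes were not tested within X or within autosomes. CACGTG (8.45% and 4.71%, adjusted p = 0.00103) and TGATAA (6.71% and 4.02%, adjusted p = 0.0135, Fisher's exact test) were also more frequent at distal summits. The TGATAA call was lost within 100 bp of the summit (adjusted p = 0.378), among the 2109 strongest peaks (0.341) and with the 2000 bp window (0.0893), all by Fisher's exact test. In the other direction the lowest p belonged to AACGCG (3.24% and 12.99%), ACGCGC (5.44% and 16.5%) and GAGCGC (4.75% and 14.7%). ACCGTA was at 4.398% of distal and 9.43% of promoter summits (adjusted p = 2.48e-05, Fisher's exact test). Its shares were 4.48% and 10.4% on autosomes. On X they were 4.07% (interval 1.65 to 8.21%) and 2.59% (1.19 to 4.87%), so the lower share at distal summits was not seen there. GACGCA did not separate the classes, at 17.5% and 18.2% (adjusted p = 0.835, Fisher's exact test).

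Distal and intronic summits were not told apart by any 6-mer. Against the 426 intronic summits none of the 2080 passed in either direction (0% and 0%), by Fisher's exact test with Benjamini-Hochberg adjustment, and the smallest adjusted p was 0.351. Unadjusted, 46 more frequent and 55 less frequent at distal summits had p under 0.05. GAGAGA was at 39.0% of intronic summits (interval 34.3 to 43.8%) and GACGCA at 16.2% (12.8 to 20.05%). The intronic peaks are fewer than the promoter peaks, so a difference that passes against promoters can miss the threshold here.

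GA repeats were less frequent at X distal peaks than at autosomal ones. This comparison was chosen after the data were seen. GAGAGA was near 33 of 172 X distal summits, 19.2% (interval 13.6 to 25.9%), and near 324 of 692 autosomal ones, 46.8% (43.1 to 50.6%), with adjusted p = 2.79e-08 by Fisher's exact test. In all, 6 of the 6-mers were less frequent on X (0.288% of those tested) and 2 more frequent (0.0962%). The others that were less frequent were AGAGAC (12.2% on X and 29.8% on autosomes), AGAGAG (19.8% and 38.9%), CGCAGA (6.98% and 20.2%), AGAGAA (24.4% and 41.8%) and ACGCAG (8.72% and 21.2%). Each of them overlaps GAGAGA or another of the list in letters, so they are not separate findings. Those more frequent were ATCGCG (6.40% and 0.723%) and CCTTCG (8.72% and 2.17%). Unadjusted, 173 had p under 0.05.

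At promoter peaks, also compared after the data were seen, the order was the opposite. GAGAGA was near 36.6% of X promoter summits and 23.1% of autosomal ones (adjusted p = 3.23e-05, Fisher's exact test), where 92 6-mers were more (4.42%) and 90 less frequent on X (4.33%). Within 50 bp of the summit the whole GA repeat was in 21.2% of the 66 X intronic peaks (interval 12.1 to 33.0%) and 41.1% of autosomal ones (35.98 to 46.4%), which is the order of the distal peaks. Distal sequence as a whole held it in 4.55% of such windows on X and 5.58% on autosomes. The difference between the distal and the promoter contrast was not itself tested.

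**Figure D4:**
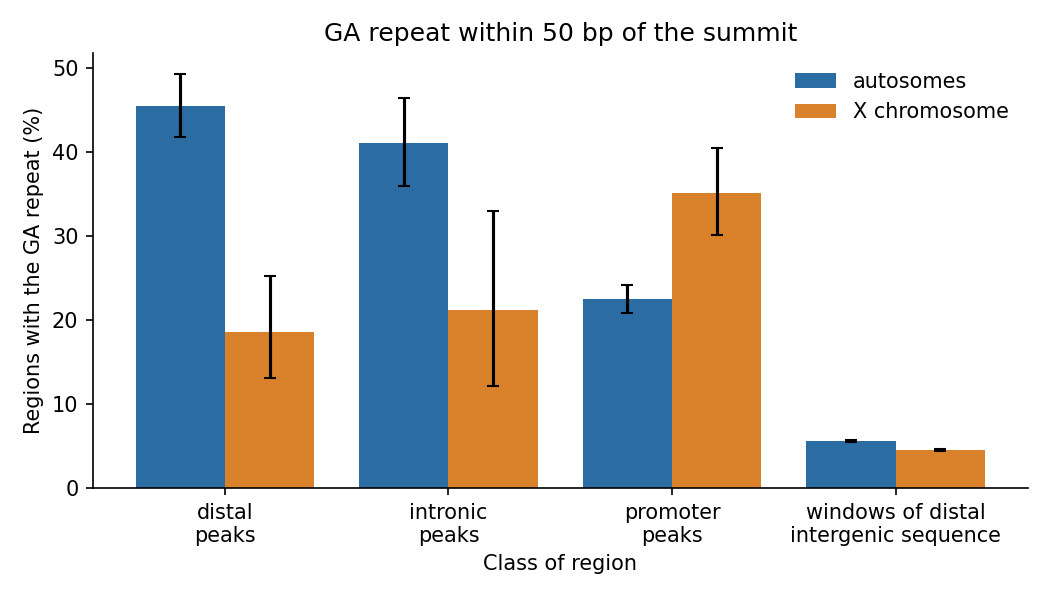
Share of regions with GAGAGA or its reverse complement wholly within 50 bp of the summit, or within windows of the same size in distal intergenic sequence (y axis, %), by class and chromosome group; bars show 95% exact intervals. The share was 18.6% on X and 45.5% on autosomes for distal peaks, and 35.2% and 22.5% for promoter peaks.

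Within the autosomal distal peaks the GA repeat went with signal. It was in 55.7% of autosomal peaks among the 288 strongest distal peaks (interval 49.1 to 62.1%), 44% among the next 288 and 36.5% among the last 288 (30.3 to 43.1%). TGCGTCTC showed the same order, at 20.7%, 14.7% and 8.26%.

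Many of the strongest X distal peaks held the MEX core. GCGCAGGG, an 8-letter core searched on both strands and chosen after the data were seen, lay within 200 bp of 12 of 172 X distal summits (6.98%, interval 3.66 to 11.9%). It lay within that distance of 3 of 692 autosomal distal summits (0.434%, 0.0895 to 1.26%), and in 0.219% of windows of the same size over X distal sequence. Among X promoter peaks it was at 2.31% (1.00 to 4.49%) and among X intronic peaks at 2 of 66. Of 34 occurrences in X distal sequence 14 lay within 200 bp of a distal summit (41.2%, interval 24.6 to 59.3%), against 3 of 57 on autosomes. D7, D11 and D20 held 2 occurrences each, which the interval counts as separate, so it is too narrow.

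The X peaks with the core were D7, D9, D10, D11, D20, D22, D44, D48, D247, D298, D672 and D715. Their pooled signals had a median of 355 (47.8 to 688), beside 66.8 for the 160 X distal peaks without it (42.3 to 572). Of the 10 strongest X distal peaks 6 held the core, and of the first 20, 8. Replicate 1 was higher in 11 of the 12, and their median log2 ratio between replicates was 0.31, beside 0.55 without the core. The core of D10 lay more than 50 bp from its summit. ATCGCG and CCTTCG, the 6-mers more frequent on X, were near 11 and 15 X distal summits, of which 6 and 4 had the core. In the printed D9, D11 and D20, ATCGCG or its reverse complement shares letters with the core, so there it is not a separate finding.

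**Figure D5:**
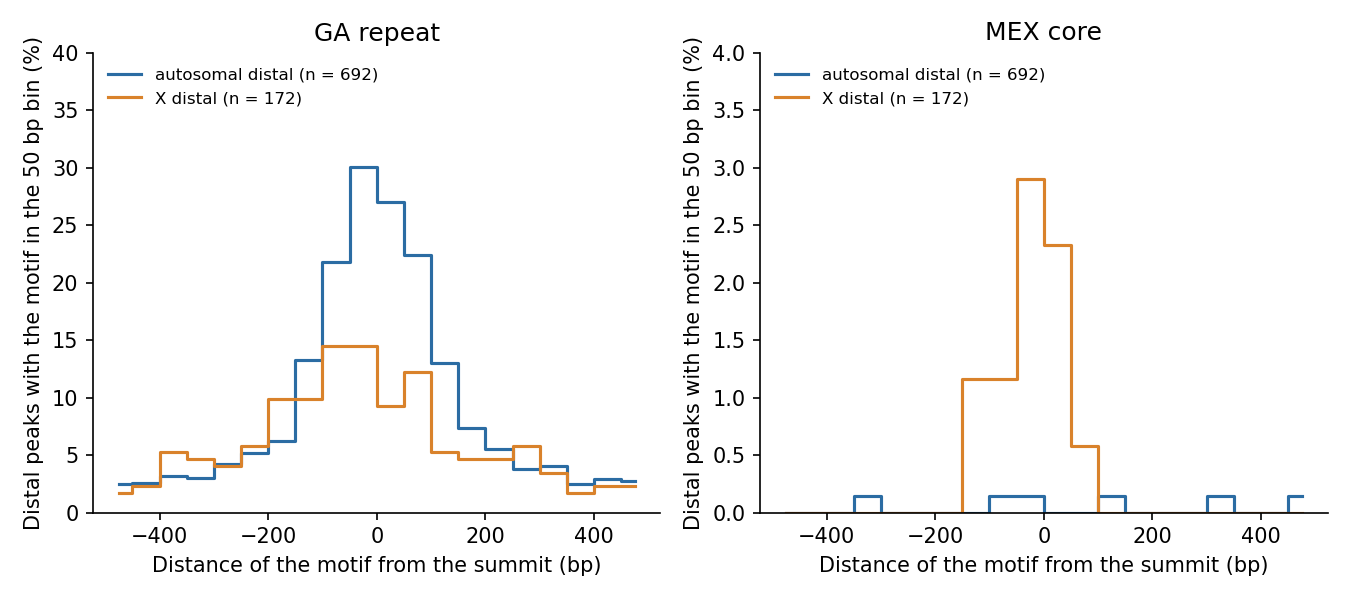
Share of distal peaks with a motif in each 50 bp bin (y axis, %; the y axes differ) by distance of the motif from the summit (x axis, bp), for the GA repeat (left) and the MEX core (right), on autosomes (blue, n = 692) and X (orange, n = 172). The GA repeat peaked at 30.1% of autosomal and 14.5% of X peaks, and the MEX core at 2.91% of X peaks.

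Few distal peaks had a summit sequence found more than once in the genome or shared long stretches with another distal peak. The 2 strongest distal peaks, D1 and D2, shared such stretches. The counts below do not cover all repeated sequence. Soft-masked bases, marked as repetitive in the genome sequence, had a mean share of 20.9% within 50 bp of distal summits. At promoter, intronic and exonic summits the means were 23.0%, 23.6% and 26.7%. The 51 bases around the summit occurred more than once in the genome for 8 of 864 (0.926%). Stretches of 31 bases were shared between distinct peaks in 56 pairs among 33 members, counted within 100 bp of the summit. The largest group of peaks joined by 20 or more shared stretches was D1, D2, D75, D193 and D220, printed above except for D1. Their replicate values fell from 803 and 537 at D1 and 644 and 349 at D2 to 117 and 67.1 at D75, 50.1 and 72.5 at D193 and 71.7 and 42.3 at D220. Peaks that hold the same element therefore differed widely in signal. Without the 8 peaks with repeated summits and the 14 in groups joined by 20 or more shared stretches, some of which are in both sets, 844 remained, with a median signal of 69.4. Peaks that share fewer stretches are still among these. The treatment of reads with several matches was not given in the sources used here; its part in these values was not tested.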

How the data were processed

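Peaks were taken from the deposited ce11 lists: 1 per replicate, 1 for both replicates pooled, and the IDR-thresholded list, called against a control per the deposited text listings. The authors gave each peak a signal value without naming the statistic behind it. The deposited −log10 q value was the same for all IDR peaks, so it was not used. Peak caller, aligner, versions, read depth: not given in the sources used here. Intervals therefore cover the counting of peaks only. The ce10 lists were not used here. Each list before IDR holds 30000 peaks, which sets its length, and the 4218 IDR peaks are the strongest of the pooled list.

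Summits, counted from 1, were matched to Ensembl release 115 gene models of WBcel235, the assembly of ce11, and sequence was read from RefSeq's WBcel235. Each replicate was read at its summit closest to the peak, up to 200 bp away. Presence of 6-mers was tested as stated, with adjusted p under 0.05 as the threshold. Intervals are 95% exact (Clopper-Pearson). The members, gene lists, motifs and tests were chosen with earlier results of these data known. Peaks named were the 12 strongest, the 5 farthest from a start, and the strongest by microRNA, biotype and gene list; others were chosen after their values were seen. The replicates are biological per the labels. Python 3.11.15, numpy 2.4.6, scipy 1.17.1 and matplotlib 3.10.9 were used, and the 6-mer tests were tested on simulated data. The simulated sites were drawn at random from distal sequence, with a planted 6-mer. They lack the GC difference between real summits and flanks, so they cannot show its part in the 6-mer calls. Alternatives covered windows, midpoints, stronger peaks, flanks and each replicate alone.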

Additional observations from a re-analysis of the deposited data

How the results depend on the processing

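No paired comparison of samples was possible because there was a single group of 2 replicates. The McNemar tests paired the near and flank windows of the same peak. With a promoter window of 2000 bp upstream the number of distal peaks was 539, with a median distance of 3014 bp, and with 500 bp upstream the median distance was 1667 bp; the window itself sets these. Among the 2109 strongest peaks alone there were 308 distal peaks, with a median signal of 135, 99.7% with a summit of both replicates, 32.8% in the central segment of the chromosome and 7 near a microRNA. With replicate summits within 100 bp the share found in both was 94.2%. Counting windows of every biotype left 0 peaks near a microRNA, by construction, and a microRNA window of 2000 bp gave 20. With 1 replicate alone there were 832 to 879 distal peaks, with a median signal of 31.5 to 41.3 on the replicate's own scale, and with 11 to 12 near a microRNA. Of all 2080 6-mers, 8.03% were more and 7.74% less frequent near summits than in flanks in the stronger peaks, and 9.13% and 7.84% with the 2000 bp window; both use fewer peaks. More and less frequent near distal than promoter summits were 4.13% and 5.38% in the stronger peaks and 2.69% and 4.86% with the 2000 bp window. Within 100 bp of the summit 12.9% were more frequent near distal summits, and against intronic peaks 0% in each direction. For single 6-mers, 140 of 152 recomputed differences from flanks and 100 of 133 from the other class kept their direction and side of the threshold. The other class was promoter peaks, except for 19 of the 133, which set the same 6-mers against intronic peaks, where none passed. The distal minus promoter difference in percentage points changed sign for GACGCA within 100 bp (2.21), in the stronger peaks (2.68), in the replicate 1 list (0.435, against -0.671 in the replicate 2 list) and against intronic peaks (1.28). Against intronic peaks it also changed sign for TGATAA (-1.74), CACGTG (-1.41), CAGCTG (-0.293), TAAACA (3.07), TTCAAA (0.373), AACGCG (1.13) and ACGCGC (1.68), where none passed; the cause was not tested. The X minus autosomal difference of GAGAGA, added after the data were seen, ran from -32.4 to -24.6 percentage points over 4 alternatives, with adjusted p up to 0.0132 (Fisher's exact test). Unknown depth and 2 replicates limit what a difference in signal between peaks can show.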
